A study of Mus musculus with 9 samples.

Results

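The citric acid cycle and fatty acid oxidation were followed through 37 genes. With earlier results of these data known, these genes were chosen by name for their place in the pathway. They encode the steps that bring pyruvate into the mitochondrion (8 genes), the citric acid cycle itself (11), the enzymes that handle malate, aspartate and glutamate at its edge (6) and the oxidation of fatty acids (12). All 37 were among the 47480 gene names of the deposited count table, and 36 of them were among the 16426 genes with enough counts to be tested. The malic enzyme gene Me3 was the exception.

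Pyruvate from glycolysis crosses the inner mitochondrial membrane through a carrier and is turned into acetyl-CoA by the pyruvate dehydrogenase complex, or into oxaloacetate by pyruvate carboxylase. Fatty acids enter as carnitine esters and are shortened to acetyl-CoA by repeated oxidation, and the cycle burns acetyl-CoA to reduce the electron carriers of respiration. Hematopoietic stem cells are known for relying on glycolysis and for their dependence on fatty acid oxidation, and their progeny for more active mitochondria.

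RNA came from primary hematopoietic cells of C57BL/6 mice. MP cells, labelled as progenitors with the abbreviation not spelled out, gave 3 libraries of polysomal RNA and 2 of total RNA. LSK cells, labelled as stem cells, gave 2 libraries of polysomal RNA and 2 of total RNA. LSK stands for lineage-negative cells that carry Sca-1 and Kit. All cells, in every group, had been incubated with cycloheximide, which halts ribosomes on their messages, at 100 ug/ml for 10 min. Polysomal RNA was fraction 7 of the 10 fractions of a 10 to 60% sucrose gradient, so it is 1 stretch of the gradient and not every ribosome-bound message. Total RNA was put aside from the lysate first, and all RNA was amplified with a SMARTer protocol. The labels do not say that libraries came from separate animals, so p-values speak only of the scatter among these libraries, some of which may be technical. Nor do they say which libraries share a lysate. If polysomal and total libraries do share lysates, the errors of changes averaged over both fractions are too small.

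Library totals ran from 27342343 to 34807735 counts. Levels are normalised counts (CPM, TMM-scaled), and they are not divided by gene length unless stated. Changes are on the log2 scale, each with a standard error (SE), from the quasi-likelihood model in edgeR of all 9 libraries, with p-values adjusted over all tested genes by the Benjamini-Hochberg method and a threshold of 0.05. Marker genes separated the populations. Ly6a, which encodes Sca-1, had 1.26, 0.595 and 0.159 CPM in MP polysomal RNA and 0.966 and 0.584 CPM in MP total RNA, against 72.1 and 109.6 CPM in LSK polysomal RNA and 50.2 and 77.4 CPM in LSK total RNA. The 11 stem cell markers summed to 831 to 1844 CPM in MP libraries and 1946 to 4579 CPM in LSK libraries. The 10 granulocyte and monocyte progenitor markers summed to 32386 to 57421 CPM in MP libraries and 5017 to 12201 CPM in LSK libraries. The 12 erythroid markers summed to 6367 to 11343 CPM in MP libraries and 2029 to 3749 CPM in LSK libraries. Of other blood cells, the 11 markers of maturing neutrophils summed to 17754 CPM in MP polysomal 1 and 14294 CPM in MP total 1, against 444 to 2426 CPM in the other 7 libraries. The 10 B cell markers summed to 3368 CPM in LSK polysomal 2 and 4795 CPM in LSK total 2, against 156 to 901 CPM elsewhere. The 9 macrophage markers summed to 2286 CPM in MP polysomal 1 and 1577 CPM in MP total 1, against 356 to 810 CPM elsewhere. The 9 T and NK cell markers summed to 973 CPM and 934 CPM in the same libraries, against 357 to 729 CPM elsewhere, and the 6 megakaryocyte markers to 194 to 834 CPM over all libraries. No marker of these 8 lists was at 0 in all libraries. The part of these mixtures in the values below was not tested beyond leaving out the libraries that carry them, and in such bulk samples fewer cells of a type and less RNA per cell cannot be told apart.

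As a whole the members took a small and fairly even part of each library. They held 0.881%, 0.891% and 0.761% of the counts in MP polysomal RNA, 0.790% and 0.722% in MP total RNA, 0.892% and 0.857% in LSK polysomal RNA, with 0.682% and 0.587% in LSK total RNA. Both LSK total libraries lay below the other 7. Their summed level was 9455 ± 891 CPM in MP polysomal RNA (SD, n = 3), 7703 ± 801 CPM in MP total RNA (n = 2), 9130 ± 848 CPM in LSK polysomal RNA (n = 2) and 5093 ± 944 CPM in LSK total RNA (n = 2). In these scaled sums the polysomal libraries of each population lay above the total ones, while as a share of counts MP polysomal 3 lay below MP total 1. The MP libraries lay above the LSK libraries in total RNA and overlapped with them in polysomal RNA.

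The roles did not all follow that order. The pyruvate entry genes summed to 1352, 1335 and 1226 CPM in MP polysomal RNA, 993 and 979.5 CPM in MP total RNA, 955 and 689.8 CPM in LSK polysomal RNA, and 716 and 619 CPM in LSK total RNA. Every MP library lay above every LSK library in TMM scaling. With library totals alone as scaling the populations overlapped, since MP total RNA had 949 and 991 CPM, against 998 CPM in LSK polysomal 1. The malate and glutamate genes summed to 1513, 1292 and 1307 CPM in MP polysomal RNA and 1157 and 1101 CPM in MP total RNA, against 1849 and 1995 CPM in LSK polysomal RNA and 853 and 825 CPM in LSK total RNA. Here the LSK polysomal libraries were the highest of all, and the LSK total libraries the lowest. The fatty acid oxidation genes summed to 1815, 1829 and 1691 CPM in MP polysomal RNA, 1498 and 1371 CPM in MP total RNA, 1933 and 1836 CPM in LSK polysomal RNA, and 1283 and 906 CPM in LSK total RNA. All 5 polysomal libraries lay above all 4 total libraries. The cycle genes summed to 5129, 5659 and 4218 CPM in MP polysomal RNA and 4622 and 3686 CPM in MP total RNA. In LSK cells they summed to 3794 and 5209 CPM in polysomal RNA and 2909 and 2075 CPM in total RNA. Both LSK total libraries lay below all the others, also with library totals alone as scaling, while the other groups overlapped. These sums are descriptions, and no test was made of them.

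**Figure D1:**
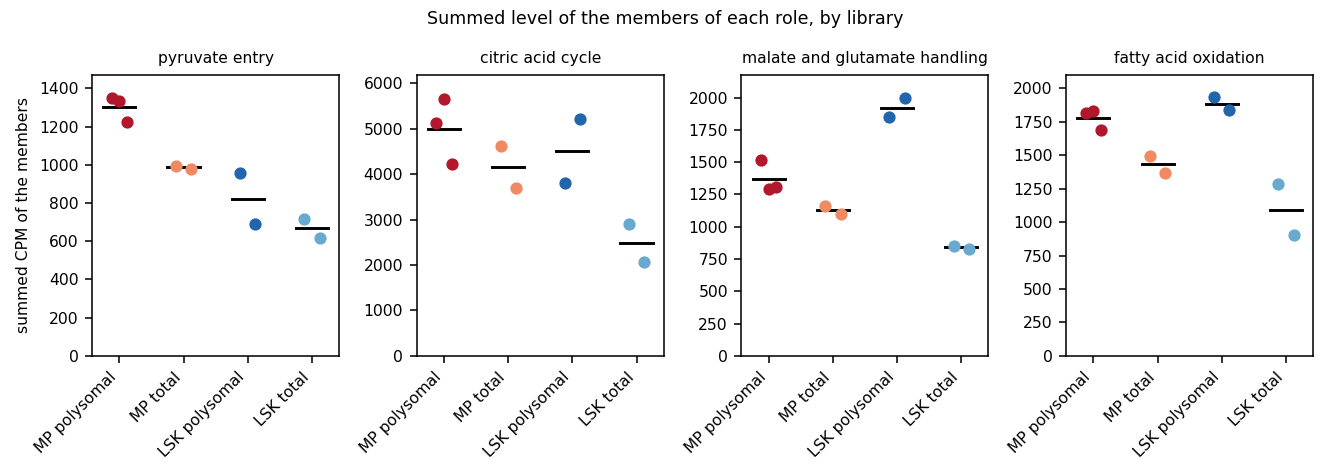
Summed CPM of the tested and untested members of each role (vertical axis, from 0) in the 4 groups of libraries (horizontal axis). Points are libraries and black lines group means. In pyruvate entry all 5 MP libraries lie above the LSK libraries in this TMM scaling (with library totals alone they overlap), and in fatty acid oxidation all 5 polysomal libraries lie above the total ones.

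Between populations, averaged over both RNA fractions, the members leaned to positive changes of modest size, and none passed the test. The median member change was 0.30 for MP over LSK, beside −0.01 over all genes tested, and 31 of 36 members were positive, against 49.5% of all genes. By the quasi-likelihood test of edgeR 0 of 36 members passed, while 10.1% of all genes did. Of the members 4 had an unadjusted p under 0.05, against 24% of all genes, so single members stood out no more often than other genes. DESeq2 called 3 members, Dlst, Me2 and Mpc1, all higher in MP cells. Its own share over all genes is not given here, so these 3 calls are not set against one. Over the alternatives 384 to 2706 of all genes passed. By role, 8 of 8 pyruvate entry genes had a positive change (median 0.57), as had 9 of 11 cycle genes (median 0.31), 3 of 5 malate and glutamate genes (median 0.07) and 11 of 12 fatty acid oxidation genes (median 0.23). Without LSK total 1 the member median was 0.58. The positive direction is relative to the scaling. With library totals alone as scaling the median of all genes moved to −0.24 and the member median to 0.08. That of the malate and glutamate genes moved to −0.15. The member median stayed 0.32 above that of all genes, as in TMM scaling. In this other scaling 24 of 36 members were positive, against 38% of all genes.

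The member median was larger in total RNA than in polysomal RNA, a difference of medians that was not tested. In MP over LSK total RNA the median member change was 0.56, beside −0.01 over all genes, and 31 of 36 members were positive. None of the 36 passed by the quasi-likelihood test of edgeR or by DESeq2, and 1.09% of all genes passed edgeR's test (0.274% higher and 0.816% lower). The MP libraries lay above the LSK libraries without overlap in 20 members and below them in 1, against 22.8% and 28.5% of all genes, and groups of 2 libraries often fall apart in this way. An unadjusted p under 0.05 was found for 3 members, Dlst, Me2 and Cs, and for 17.1% of all genes. Without LSK total 2 the median was 0.38. In polysomal RNA the median was 0.12, beside −0.03 over all genes, and 20 of 36 were positive. That median was 0.05 without MP polysomal 2, 0.19 without MP polysomal 1 and 0.23 without LSK polysomal 2. Again 0 members passed with either tool, against 3.35% of all genes by edgeR (0.524% higher and 2.83% lower). The MP libraries lay above the LSK libraries in 6 members and below them in 4, against 15% and 17.4% of all genes. Only Mdh1 had an unadjusted p under 0.05, against 17.8% of all genes.

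**Figure D2:**
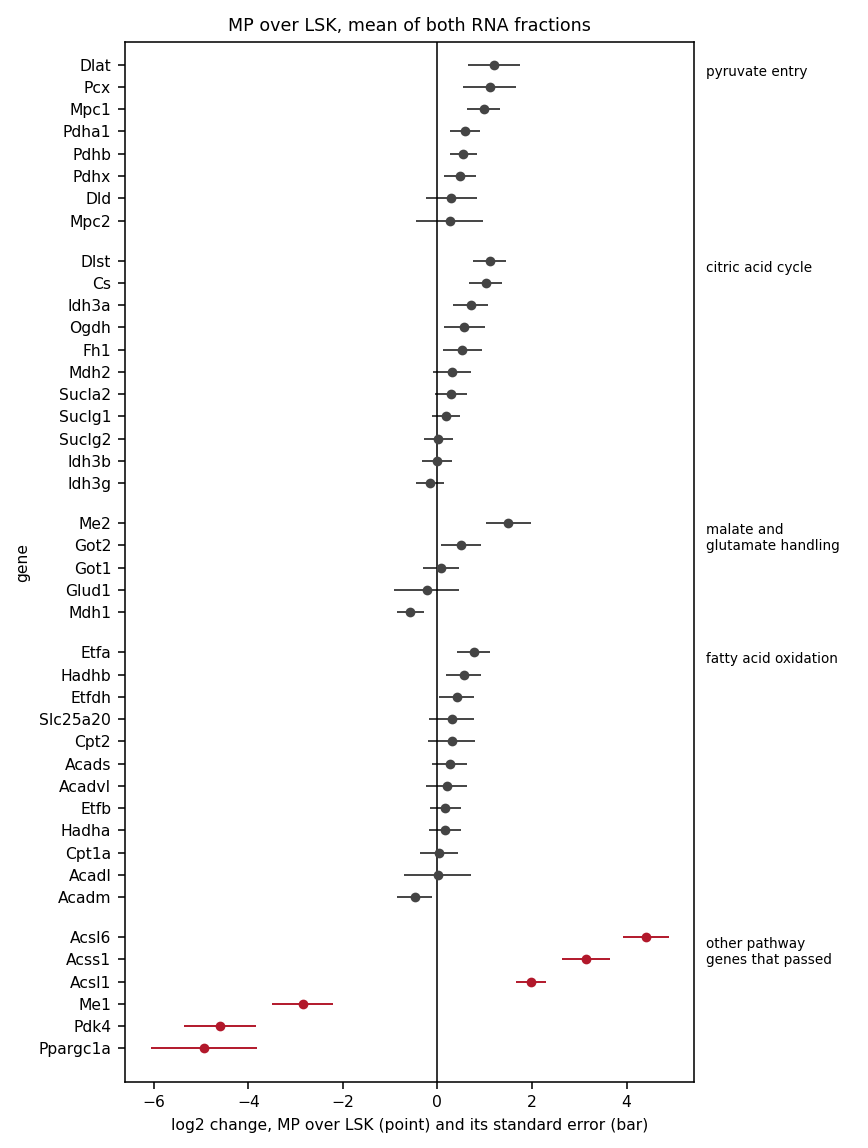
Log2 change of MP over LSK, averaged over both RNA fractions (horizontal axis), of the 36 tested members by role and, in red, of the 6 other pathway genes that passed. Points are edgeR estimates and bars their standard errors. Member changes lie between −0.57 for Mdh1 and 1.50 for Me2, and the 6 red genes lie farther out on either side.

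Polysomal over total RNA showed a lean of similar kind. Averaged over both populations, the median member change was 0.43, beside 0.03 over all genes, and 30 of 36 members were positive, against 51.6% of all genes. No member passed by the quasi-likelihood test of edgeR, and neither did any other gene (0% of all genes). An unadjusted p under 0.05 was found for 6 members and for 14.9% of all genes. DESeq2 called Hadha alone of the members, while 0 to 843 of all genes passed over the alternatives. With library totals as scaling the median of all genes was −0.23 and that of the members 0.17, which is 0.40 above it, as in TMM scaling. Then 22 of 36 members were positive, against 36.9% of all genes. In TMM scaling all 11 cycle genes were positive, as were 9 of 12 fatty acid oxidation genes (median 0.50). So were 6 of 8 pyruvate entry genes (median 0.30) and 4 of 5 malate and glutamate genes (median 0.80). In LSK cells alone the member median was 0.70 (30 of 36 positive, all genes 0.02), and in MP cells alone it was 0.32 (23 of 36 positive, all genes −0.08). Neither gave a member or any other gene that passed by edgeR (0% and 0% of all genes). An unadjusted p under 0.05 was found for 5 members in LSK and 0 in MP, against 12.1% and 7.57% of all genes, and DESeq2 called 0 members in either. Polysomal libraries lay above total ones without overlap in 16 members in LSK cells and 12 in MP cells, against 16.2% and 16.3% of all genes, and below them in 2 members each, against 20.6% and 16.4%. LSK total 2 weighed on the LSK value, which was 0.51 without it and 0.28 without both LSK libraries numbered 2. The MP value was 0.17 without MP total 2.

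**Figure D3:**
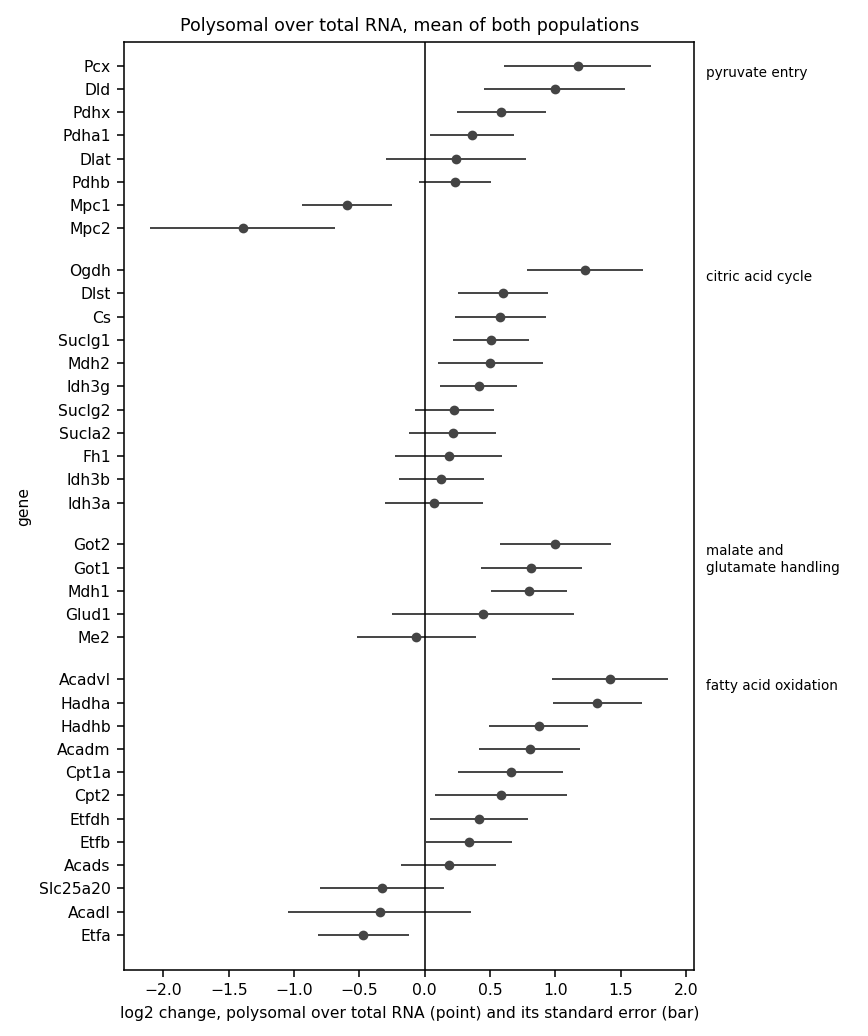
Log2 change of polysomal over total RNA, averaged over both populations (horizontal axis), of the 36 tested members by role. Points are edgeR estimates and bars their standard errors. Acadvl, Hadha and Ogdh lie at the high end, between 1.23 and 1.42, and Mpc2 is lowest at −1.39.

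Among the pyruvate entry genes, Mpc1, which encodes a subunit of the mitochondrial pyruvate carrier, had 43.7, 48.3 and 29.8 CPM in MP polysomal RNA and 66.4 and 64.8 CPM in MP total RNA, against 18.6 and 25.7 CPM in LSK polysomal RNA and 30.1 and 32.0 CPM in LSK total RNA. Within each fraction the MP libraries lay above the LSK libraries, with a mean change of 0.98 (SE 0.35, adjusted p = 0.119) for MP over LSK by the quasi-likelihood test of edgeR. A processed copy, Mpc1-ps, is in the same count table, and the gene overlaps an antisense transcript, so its reads may be divided or shared. Mpc2, the partner subunit of the carrier, had 8.16, 30.0 and 39.2 CPM in MP polysomal RNA and 81.0 and 109 CPM in MP total RNA, against 6.01 and 54.2 CPM in LSK polysomal RNA and 25.1 and 87.8 CPM in LSK total RNA. Its polysomal and total libraries did not overlap in MP cells, but its libraries spanned up to 9.02-fold within 1 group, and its mean change for polysomal over total RNA was -1.39 (SE 0.71, adjusted p = 0.397). Both carrier subunits were on the negative side of the fraction comparison, where most members were positive.

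Dlat encodes the acetyltransferase core of the pyruvate dehydrogenase complex, and it had 50.7, 109 and 226 CPM in MP polysomal RNA and 122 and 176 CPM in MP total RNA, against 37.9 and 116 CPM in LSK polysomal RNA and 29.3 and 65.9 CPM in LSK total RNA. The MP over LSK change was 1.20 (SE 0.55, adjusted p = 0.222), with overlap between the populations. Dld, the dihydrolipoamide dehydrogenase that the pyruvate and oxoglutarate complexes share, had 538, 381 and 272 CPM in MP polysomal RNA and 143 and 132 CPM in MP total RNA, against 393 and 53.7 CPM in LSK polysomal RNA and 201 and 123 CPM in LSK total RNA. Its LSK polysomal libraries differed 7.32-fold from each other. The polysomal over total change of Dld was 1.00 (SE 0.54, adjusted p = 0.428), and −0.08 without LSK polysomal 1, so its sign rested on that library. Pdhb, the beta subunit of the first enzyme of the complex, had 277, 284 and 254 CPM in MP polysomal RNA and 272 and 228 CPM in MP total RNA, against 196 and 206 CPM in LSK polysomal RNA and 160.3 and 156 CPM in LSK total RNA. It was the steadiest member between libraries of a group (within-group SD of 0.10 on the log2 scale), and all 5 MP libraries lay above all 4 LSK libraries, as they did for 4.34% of all genes, at a change of 0.55 (SE 0.28, adjusted p = 0.278).

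Pdha1, the alpha subunit that the complex's kinases phosphorylate, had 278, 341 and 269.8 CPM in MP polysomal RNA and 207 and 180.4 CPM in MP total RNA, against 199 and 132 CPM in LSK polysomal RNA and 195 and 112 CPM in LSK total RNA. Part of its exons overlap Map3k15 on the other strand, and the strand setting of the counting is not given in the sources used here. Pcx, pyruvate carboxylase, had 25.2, 40.5 and 53.6 CPM in MP polysomal RNA and 25.0 and 25.5 CPM in MP total RNA, against 15.3 and 37.6 CPM in LSK polysomal RNA and 13.9 and 2.52 CPM in LSK total RNA. LSK total 2 stood 5.53-fold below LSK total 1. Pcx had a change of 1.10 (SE 0.56, adjusted p = 0.278) for MP over LSK and of 1.17 (SE 0.56, adjusted p = 0.370) for polysomal over total RNA, and neither passed the quasi-likelihood test of edgeR. Pdhx, the protein that binds Dld to the complex, ranged over its libraries between 40.2 and 132 CPM with a median of 77.1 CPM.

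In the cycle, Dlst had the smallest p of all members in the population comparison. It encodes the succinyltransferase of the oxoglutarate dehydrogenase complex, lies on chromosome 12 (85110833 to 85134845, plus strand, GRCm38) and had 525, 531 and 447 CPM in MP polysomal RNA and 428 and 329 CPM in MP total RNA, against 263 and 269 CPM in LSK polysomal RNA and 219 and 88.7 CPM in LSK total RNA. Every MP library lay above every LSK library. The change was 1.11 (SE 0.35, adjusted p = 0.0790) by the quasi-likelihood test of edgeR, with an adjusted p between 0.0350 and 0.336 over the alternatives. The RefSeq promoter of Dlst is shown because it holds a match to the ETS motif at the start site (GRCm38.p6, chr12:85110583-85110882, plus strand, motif in capitals).
Dlst promoter: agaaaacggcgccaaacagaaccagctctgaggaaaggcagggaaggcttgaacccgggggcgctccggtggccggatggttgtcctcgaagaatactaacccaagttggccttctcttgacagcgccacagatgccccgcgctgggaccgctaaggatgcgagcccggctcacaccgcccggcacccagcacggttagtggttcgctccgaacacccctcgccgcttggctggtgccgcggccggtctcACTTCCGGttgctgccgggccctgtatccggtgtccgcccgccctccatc

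Cs, citrate synthase, which joins acetyl-CoA to oxaloacetate, had 739.7, 864 and 594 CPM in MP polysomal RNA and 663 and 487 CPM in MP total RNA, against 388 and 460.4 CPM in LSK polysomal RNA and 343 and 141 CPM in LSK total RNA. It followed the order of Dlst, with all MP libraries above all LSK libraries and the 141 CPM of LSK total 2 far below the rest. Its change was 1.02 (SE 0.35, adjusted p = 0.108) for MP over LSK. Without LSK total 1, Cs and Dlst both passed the quasi-likelihood test of edgeR, with changes of 1.42 and 1.51 (adjusted p = 0.0466 and 0.0353). Pdhb, Dlst and Cs were the 3 members of 36 (8.33%) whose MP libraries all lay above all LSK libraries, against 4.34% of all genes. No member showed the reverse order, against 8.51% of all genes.

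Ogdh, the oxoglutarate dehydrogenase that begins the same complex, had 1198, 1185 and 966 CPM in MP polysomal RNA and 699 and 473 CPM in MP total RNA, against 1015 and 838 CPM in LSK polysomal RNA and 531 and 114 CPM in LSK total RNA. All 5 polysomal libraries lay above all 4 total libraries, an order that 1.34% of all genes had. Its polysomal over total change was 1.23 (SE 0.44, adjusted p = 0.235) by the quasi-likelihood test of edgeR, and LSK total 2 stood 4.65-fold below LSK total 1. The NAD-dependent isocitrate dehydrogenase has 3 subunits, and none passed. Idh3a, the catalytic subunit, had 601, 478 and 321 CPM in MP polysomal RNA and 386 and 346 CPM in MP total RNA, against 346 and 127 CPM in LSK polysomal RNA and 283 and 263 CPM in LSK total RNA, a change of 0.70 (SE 0.38, adjusted p = 0.308) for MP over LSK. Idh3g, a regulatory subunit, had 512, 415 and 310.3 CPM in MP polysomal RNA and 467 and 385 CPM in MP total RNA, against 574 and 688 CPM in LSK polysomal RNA and 335 and 353 CPM in LSK total RNA, a change of -0.15 (SE 0.29, adjusted p = 0.826). The lowest value of Idh3a was that of LSK polysomal 2, the library in which Idh3g was highest. In total RNA too the LSK libraries of Idh3a lay below its MP libraries. Idh3b, the other regulatory subunit, ranged from 131 to 258 CPM with a median of 169 CPM.

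The succinyl-CoA ligase genes lay close together across libraries. Suclg1, the shared alpha subunit, had 376, 313 and 262 CPM in MP polysomal RNA and 317 and 268 CPM in MP total RNA, against 321 and 411 CPM in LSK polysomal RNA and 205 and 186 CPM in LSK total RNA, and its change was 0.19 (SE 0.29, adjusted p = 0.780) for MP over LSK and 0.51 (SE 0.29, adjusted p = 0.462) for polysomal over total RNA. Suclg2, the GTP-forming beta subunit, had 126, 193 and 144 CPM in MP polysomal RNA and 135 and 119 CPM in MP total RNA, against 132 and 161 CPM in LSK polysomal RNA and 141 and 119 CPM in LSK total RNA. Sucla2, the ATP-forming beta subunit, had 99.6, 195 and 148 CPM in MP polysomal RNA and 93.9 and 97.5 CPM in MP total RNA, against 78.0 and 104 CPM in LSK polysomal RNA and 92.2 and 117 CPM in LSK total RNA. After Pdhb, Suclg1 and Suclg2 were the steadiest members within groups. Fh1, fumarase, ranged from 85.7 to 263 CPM with a median of 194 CPM.

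Mdh2, the malate dehydrogenase of the mitochondrial matrix, and Mdh1, its cytosolic counterpart, did not pass in any comparison by the quasi-likelihood test of edgeR. Mdh2 had 678, 1015 and 685 CPM in MP polysomal RNA and 997 and 819 CPM in MP total RNA, against 442 and 1637 CPM in LSK polysomal RNA and 459.6 and 446 CPM in LSK total RNA. A single library, LSK polysomal 2, stood 3.71-fold above its partner, and the MP over LSK change was 0.31 (SE 0.40, adjusted p = 0.730). Mdh1 had 694, 525 and 438 CPM in MP polysomal RNA and 464 and 363 CPM in MP total RNA, against 1130.1 and 1009 CPM in LSK polysomal RNA and 477 and 465 CPM in LSK total RNA. Its LSK polysomal libraries lay above all the others, and its MP libraries below the LSK libraries within each fraction. The MP over LSK change of Mdh1 was -0.95 (SE 0.38, adjusted p = 0.226) in polysomal RNA and -0.19 (SE 0.42, adjusted p = 0.869) in total RNA by the quasi-likelihood test of edgeR. Its polysomal over total change was 1.18 (SE 0.43, adjusted p = 0.309) in LSK cells and 0.42 (SE 0.39, adjusted p = 0.866) in MP cells, and the difference between these was -0.77 (SE 0.57), which did not pass (adjusted p = 0.877). Divided by exon length, Mdh1 and Mdh2 were the highest of the 36 tested members, at 244 and 224 CPM per kilobase (mean of the 4 group means), and Pcx and Mpc2 the lowest, at 5.24 and 7.05 CPM per kilobase.

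The malic enzymes turn malate into pyruvate. Me2, the mitochondrial NAD-dependent form, had 64.3, 142 and 241 CPM in MP polysomal RNA and 151 and 216 CPM in MP total RNA, against 43.8 and 80.5 CPM in LSK polysomal RNA and 36.9 and 73.4 CPM in LSK total RNA. Its change of 1.50 (SE 0.47, adjusted p = 0.0801) for MP over LSK was the largest of any member. MP polysomal 1 alone fell among the LSK libraries. Me2 passed with DESeq2 (change 1.50, adjusted p = 0.0195) and in edgeR with no filter on low counts (1.51, adjusted p = 0.0229). It also passed in edgeR with library number as a block (1.25, adjusted p = 0.0409), so its call depended on the setting. That block joins MP polysomal 2 to the other libraries numbered 2, with which its deviations from the group means correlated at -0.375 to -0.0575. Me3, the mitochondrial NADP-dependent form, was barely detected, with 0, 0 and 0 counts in MP polysomal RNA, 0 and 7 in MP total RNA, against 0 and 0 in LSK polysomal RNA, with 3 and 6 in LSK total RNA. It was seen in total RNA alone, at counts too low to test.

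Of the aspartate aminotransferases, which pass amino groups between aspartate and glutamate, the mitochondrial Got2 had 579, 499 and 344 CPM in MP polysomal RNA and 423 and 304 CPM in MP total RNA, against 447 and 586 CPM in LSK polysomal RNA and 266 and 71.0 CPM in LSK total RNA. Its LSK total 2 value lay 3.75-fold below LSK total 1. The cytosolic Got1 had 95.0, 71.9 and 50.3 CPM in MP polysomal RNA and 70.4 and 40.4 CPM in MP total RNA, against 91.9 and 93.9 CPM in LSK polysomal RNA and 50.3 and 27.8 CPM in LSK total RNA. Their polysomal over total changes were 1.00 (SE 0.43, adjusted p = 0.315) and 0.82 (SE 0.38, adjusted p = 0.358). A processed copy, Got2-ps1, is in the count table. Glud1, glutamate dehydrogenase, had 80.8, 54.9 and 233 CPM in MP polysomal RNA and 49.4 and 177 CPM in MP total RNA, against 136 and 225 CPM in LSK polysomal RNA and 22.3 and 188 CPM in LSK total RNA. It varied up to 8.44-fold inside a group, more than between any of the group means, and its MP over LSK change of -0.23 (SE 0.69, adjusted p = 0.898) cannot be read as a direction.

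Among the fatty acid oxidation genes, Hadha and Hadhb encode the alpha and beta subunits of the mitochondrial trifunctional protein, which carries out the last steps of each round of long-chain oxidation. In the GENCODE M21 annotation they lie head to head on chromosome 5, with 85 bases between their 5′ ends. Hadha is on the minus strand with its 5′ end at 30155162, and Hadhb on the plus strand with its 5′ end at 30155248. The RefSeq window at the Hadhb start is shown because it spans both of these GENCODE ends (GRCm38.p6, chr5:30155003-30155302, plus strand). Its capitals mark the bases between them. RefSeq places the start of Hadhb at 30155253 and that of Hadha at 30154980, outside this window. The capitals are therefore not the stretch between the RefSeq starts.
Hadhb promoter: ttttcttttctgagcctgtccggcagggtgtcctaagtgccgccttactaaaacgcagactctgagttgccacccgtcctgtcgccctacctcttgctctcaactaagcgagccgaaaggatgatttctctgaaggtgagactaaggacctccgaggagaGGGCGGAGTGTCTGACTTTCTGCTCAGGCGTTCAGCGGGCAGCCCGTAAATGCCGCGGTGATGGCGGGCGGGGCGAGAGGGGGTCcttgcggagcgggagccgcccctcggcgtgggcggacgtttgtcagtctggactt

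Hadha had 327, 313 and 225 CPM in MP polysomal RNA and 177 and 143 CPM in MP total RNA, against 407 and 309.5 CPM in LSK polysomal RNA and 137 and 69.1 CPM in LSK total RNA. Within each population every polysomal library lay above every total library. Its change was 1.32 (SE 0.34, adjusted p = 0.127) averaged over the populations by the quasi-likelihood test of edgeR, the smallest p of any member in the fraction comparison, 1.80 in LSK cells and 0.85 in MP cells. DESeq2 gave an adjusted p of 0.0222 at a change of 1.31. Hadhb had 206, 175 and 125 CPM in MP polysomal RNA and 122 and 87.0 CPM in MP total RNA, against 160.4 and 100.2 CPM in LSK polysomal RNA and 85.1 and 40.2 CPM in LSK total RNA. The polysomal libraries lay above the total ones within each population here too, and the change was 0.87 (SE 0.38, adjusted p = 0.319). For MP over LSK, Hadha had a change of 0.16 (SE 0.33) and Hadhb of 0.56 (SE 0.37).

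Acadvl, the very long-chain acyl-CoA dehydrogenase, had 145, 136 and 113 CPM in MP polysomal RNA and 104 and 71.8 CPM in MP total RNA, against 151 and 261 CPM in LSK polysomal RNA and 67.5 and 18.1 CPM in LSK total RNA. All polysomal libraries lay above all total libraries, with a change of 1.42 (SE 0.45, adjusted p = 0.177). Of the 36 members, 3 had that order, namely Ogdh, Acadvl and Hadha, and 0 had the reverse order, against 1.34% and 4.9% of all genes. The exons of Acadvl share 1151 bases with Dvl2 on the opposite strand, so part of its counts may belong to Dvl2. Acadm, the medium-chain enzyme, had 218, 163 and 130.2 CPM in MP polysomal RNA and 117 and 87.0 CPM in MP total RNA, against 343 and 154 CPM in LSK polysomal RNA and 177 and 96.5 CPM in LSK total RNA. It was 1 of the 5 members with a negative MP over LSK change, at -0.48 (SE 0.38, adjusted p = 0.515). Acadl, the long-chain enzyme, had 33.1, 61.5 and 184 CPM in MP polysomal RNA and 88.6 and 211 CPM in MP total RNA, against 47.7 and 188 CPM in LSK polysomal RNA and 34.2 and 200.2 CPM in LSK total RNA. Its spread inside each group reached 2.38-fold to 5.86-fold, and the group means differed by at most 1.62-fold. Acads, the short-chain enzyme, had 89.4, 77.6 and 60.3 CPM in MP polysomal RNA and 89.7 and 69.2 CPM in MP total RNA, against 77.6 and 73.5 CPM in LSK polysomal RNA and 77.0 and 34.5 CPM in LSK total RNA. Apart from LSK total 2 its libraries stayed between 60.3 and 89.7 CPM.

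Etfa and Etfb form the flavoprotein that takes electrons from the acyl-CoA dehydrogenases, and Etfdh passes them to ubiquinone. Etfa had 104, 248 and 150.1 CPM in MP polysomal RNA and 198 and 199 CPM in MP total RNA, against 74.5 and 93.7 CPM in LSK polysomal RNA and 124 and 148 CPM in LSK total RNA, a change of 0.77 (SE 0.35, adjusted p = 0.221) for MP over LSK. Its libraries did not overlap between populations within either fraction. Etfb had 130.2, 114 and 67.7 CPM in MP polysomal RNA and 139.5 and 115 CPM in MP total RNA, against 136 and 151 CPM in LSK polysomal RNA and 69.7 and 76.4 CPM in LSK total RNA, a change of 0.17 (SE 0.33, adjusted p = 0.826). The population order of Etfb was opposite in the 2 fractions, with MP below LSK in polysomal RNA and above it in total RNA. Exons of Etfb overlap a predicted gene on the same strand. Etfdh ranged from 58.0 to 182 CPM with a median of 115 CPM. The carnitine steps that admit long-chain fatty acids did not stand out. Cpt1a, the entry enzyme and a known control point, ranged from 81.7 to 378 CPM with a median of 269 CPM and an MP over LSK change of 0.03 (SE 0.40). Cpt2 ranged from 30.9 to 134 CPM (median 55.0) and the carrier Slc25a20 from 19.7 to 82.3 CPM (median 52.1).

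**Figure D4:**
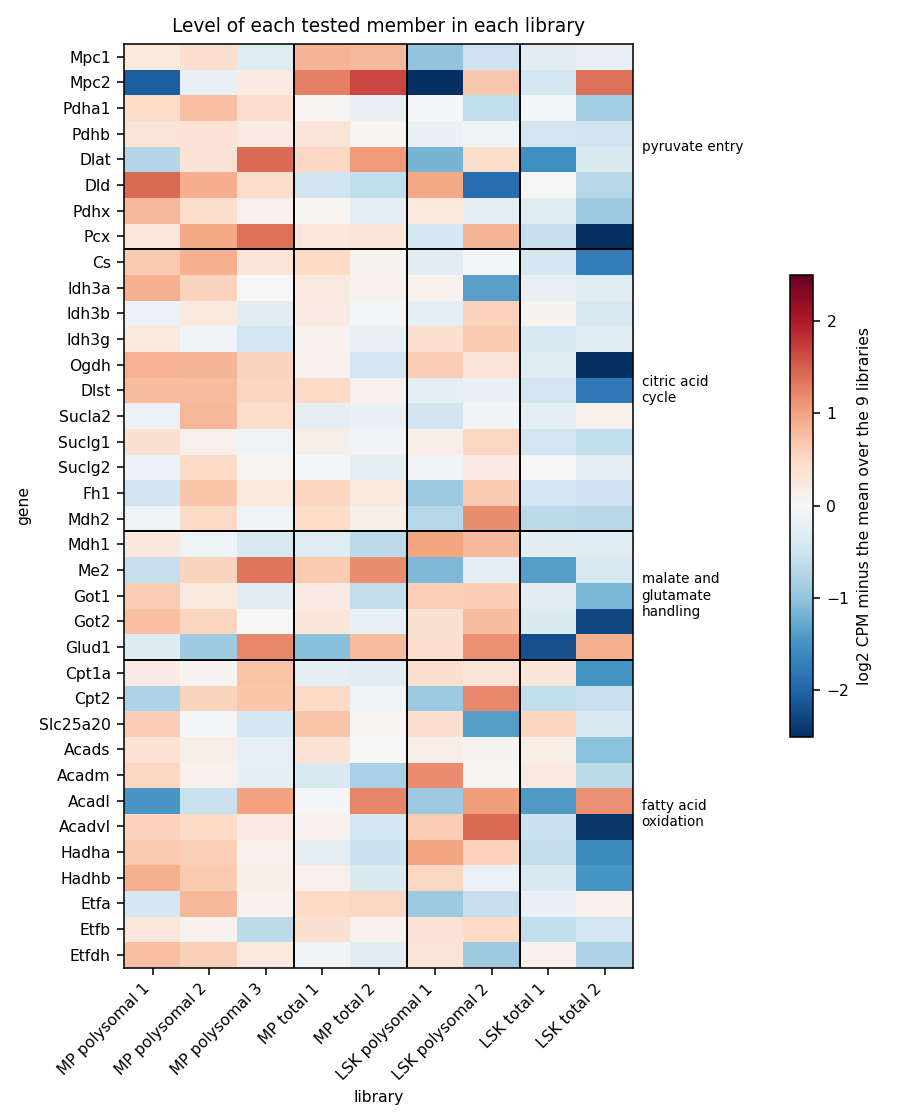
Level of the 36 tested members (rows, by role) in the 9 libraries (columns), as log2 CPM minus the gene's mean over all libraries. Red is above and blue below that mean. The rightmost column, LSK total 2, holds the lowest value of 16 members, and Mpc2, Dlat, Glud1 and Acadl vary strongly inside groups.

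Spread between libraries of the same group set the limits of these comparisons. The median within-group SD of a member was 0.50 on the log2 scale. For 23 of the 36 members some group held libraries that differed more than 2-fold, and this was so for 10 members in MP polysomal RNA, 2 in MP total RNA, 12 in LSK polysomal RNA and 13 in LSK total RNA. For 21 members the largest ratio between libraries of a group exceeded the ratio between the highest and lowest group means. LSK total 2 held the lowest value of 16 members, and LSK polysomal 1 that of 7. Part of the spread followed the library number. In 11 members the library numbered 1 was the highest in all 4 groups, and in 6 it was the lowest in all 4, against 16.4% and 12.2% of all genes (members 30.6% and 16.7%). The 11 were Hadha, Hadhb, Acadm, Acads, Slc25a20, Etfdh, Pdhx, Dld, Ogdh, Idh3a and Mdh1, and the 6 were Mpc2, Dlat, Sucla2, Me2, Acadl and Etfa. The labels do not say what a number stands for.

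Paired members were also compared as ratios within a library, which do not depend on scaling. These are ratios of CPM, not of length-corrected levels, so only their differences between groups are read. Over 9 pairs, exact permutation tests that swap population labels within each fraction have 60 arrangements and cannot go below p = 0.0167 (two-sided). They treat the 2 fractions as independent, so their p-values are not exact if polysomal and total libraries share lysates. No pair passed after Benjamini-Hochberg adjustment over the 9. With that floor a single pair could not pass on its own, whatever its difference, so the lack of a call does not show equal ratios. The Hadha to Hadhb ratio was 1.59, 1.79 and 1.80 in MP polysomal RNA and 1.45 and 1.64 in MP total RNA, against 2.54 and 3.09 in LSK polysomal RNA, with 1.61 and 1.72 in LSK total RNA. The LSK polysomal libraries stood above all others, and the MP minus LSK difference of log2 ratios was −0.41 (exact permutation p = 0.0333, adjusted 0.150). The Idh3g to Idh3a ratio was 0.852, 0.868 and 0.966 in MP polysomal RNA and 1.21 and 1.11 in MP total RNA, against 1.66 and 5.41 in LSK polysomal RNA, with 1.19 and 1.34 in LSK total RNA (difference −0.93, exact permutation p = 0.0333, adjusted 0.150). The Got1 to Got2 ratio was 0.164, 0.144 and 0.146 in MP polysomal RNA and 0.167 and 0.133 in MP total RNA, against 0.206 and 0.160 in LSK polysomal RNA, with 0.189 and 0.392 in LSK total RNA (difference −0.57, exact permutation p = 0.05, adjusted 0.150). The Mdh1 to Mdh2 ratio was 1.02, 0.517 and 0.639 in MP polysomal RNA and 0.465 and 0.443 in MP total RNA, against 2.56 and 0.616 in LSK polysomal RNA, with 1.04 and 1.04 in LSK total RNA (difference −1.02, exact permutation p = 0.0833, adjusted 0.187). The other 5 pairs, Suclg2 to Sucla2, Pdha1 to Pdhb, Acadl to Acadm, Acadvl to Acads and Etfa to Etfb, gave exact permutation p-values of 0.217 to 0.833.

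No member passed the test of whether its polysomal over total change differed between the populations. The median of these differences, MP minus LSK, was −0.51 over the members and −0.10 over all genes, with 8 of 36 members positive, against 46.9% of all genes. By the quasi-likelihood test of edgeR and by DESeq2 0 members passed, no other gene passed edgeR's test (0%), and an unadjusted p under 0.05 was found for 0 members and for 5.29% of all genes. The median moved most with the LSK libraries. It was −0.26 without LSK total 2, −0.22 without LSK polysomal 2 and −0.04 without both, and −0.76 without LSK total 1.

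Beyond the 37 members, 74 other genes of the pathway were examined, of which 71 were tested. In the mean population comparison 6 of them passed the quasi-likelihood test of edgeR, 3 higher and 3 lower in MP cells, and 2.72% of all genes were higher and 7.37% lower. The 3 that were higher activate fatty acids or acetate. Acsl6, a long-chain acyl-CoA synthetase, had 18.8, 20.1 and 22.2 CPM in MP polysomal RNA and 8.13 and 15.5 CPM in MP total RNA, against 1.33 and 0.664 CPM in LSK polysomal RNA and 0.642 and 0.424 CPM in LSK total RNA, a change of 4.40 (SE 0.49, adjusted p = 0.00157). The MP libraries of Acsl6 lay far above all LSK libraries in both fractions. Acss1, the mitochondrial acetyl-CoA synthetase, had 54.0, 67.5 and 148 CPM in MP polysomal RNA and 84.5 and 262 CPM in MP total RNA, against 19.6 and 17.7 CPM in LSK polysomal RNA and 9.89 and 11.4 CPM in LSK total RNA, a change of 3.14 (SE 0.51, adjusted p = 0.00573). Acsl1, another long-chain acyl-CoA synthetase, had 236, 322 and 253 CPM in MP polysomal RNA and 234 and 168 CPM in MP total RNA, against 72.3 and 72.0 CPM in LSK polysomal RNA and 56.7 and 39.8 CPM in LSK total RNA, a change of 1.98 (SE 0.33, adjusted p = 0.00600). Acsl6 and Acss1 kept their calls under all 18 alternatives, and Acsl1 lost its call only without both MP libraries numbered 1 (1.92, adjusted p = 0.0752). In total RNA alone Acsl6 and Acss1 passed, with changes of 4.46 (SE 0.70, adjusted p = 0.0326) and 4.02 (SE 0.76, adjusted p = 0.0456). Both calls were lost when any 1 library other than the LSK polysomal ones was left out (adjusted p = 0.0595 to 0.217 for Acsl6 and 0.0603 to 0.249 for Acss1), and with the compared groups only (0.133 and 0.135). In polysomal RNA alone Acsl6 passed, with a change of 4.34 (SE 0.68, adjusted p = 0.0150), and lost its call without LSK polysomal 2 or any 1 of the MP polysomal libraries (adjusted p = 0.0614 to 0.0832).

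The RefSeq table gives several promoter windows for Acsl6, and 1 of them is shown because it holds the only ERR motif found at a gene that passed (GRCm38.p6, chr11:54303574-54303873, plus strand, motif in capitals).
Acsl6 promoter: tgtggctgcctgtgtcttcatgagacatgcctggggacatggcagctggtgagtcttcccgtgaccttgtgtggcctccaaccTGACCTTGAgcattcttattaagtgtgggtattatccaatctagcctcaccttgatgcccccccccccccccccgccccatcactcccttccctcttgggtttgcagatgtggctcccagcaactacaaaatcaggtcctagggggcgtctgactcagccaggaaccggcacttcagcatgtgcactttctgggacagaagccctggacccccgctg

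The 3 genes that were lower in MP cells were all at very low levels. Pdk4, a kinase that switches the pyruvate dehydrogenase complex off, had 0.0342, 0 and 0 CPM in MP polysomal RNA and 0.0999 and 0.0649 CPM in MP total RNA, against 0.565 and 0.581 CPM in LSK polysomal RNA and 0.875 and 1.77 CPM in LSK total RNA. This is 6 counts over the 5 MP libraries and 132 over the 4 LSK libraries, a pooled ratio of 0.0385 (95% interval 0.0139 to 0.0861, counting error only), and a fitted change of -4.60 (SE 0.77, adjusted p = 0.00645). Ppargc1a, the coactivator of mitochondrial biogenesis known as PGC-1alpha, had 0.137, 0 and 0 CPM in MP polysomal RNA and 0 and 0.130 CPM in MP total RNA, against 2.03 and 0.332 CPM in LSK polysomal RNA and 3.76 and 1.57 CPM in LSK total RNA. Its 8 counts in MP and 261 in LSK libraries give a pooled ratio of 0.0260 (95% interval 0.0111 to 0.0519), with a fitted change of -4.94 (SE 1.13, adjusted p = 0.0237). Me1, the cytosolic malic enzyme, had 0.0342, 0.0661 and 0.159 CPM in MP polysomal RNA and 0.133 and 0.292 CPM in MP total RNA, against 1.06 and 0.415 CPM in LSK polysomal RNA and 1.20 and 1.55 CPM in LSK total RNA. Its 21 counts in MP and 145 in LSK libraries give a pooled ratio of 0.123 (95% interval 0.0737 to 0.195), with a fitted change of -2.85 (SE 0.64, adjusted p = 0.0229). All 5 MP libraries lay below all 4 LSK libraries for each of the 3 genes, against 8.51% of all genes. Their highest counts in any MP library were 3, 4 and 9, under the minimum count of 10 in the filter. They were thus tested only through their LSK libraries, which favoured this direction in advance, so the order is no separate support. Fitted changes at such counts depend on the few reads involved. Pdk4 lost its call only without both MP libraries numbered 1 (adjusted p = 0.0585). Its call in polysomal RNA alone, -5.26 (SE 1.09, adjusted p = 0.0343), was lost without any 1 of the 9 libraries (adjusted p = 0.0532 to 0.150), with library number as a replicate block (-4.78, adjusted p = 0.0922) and with the compared groups only (adjusted p = 0.0637). Ppargc1a lost it when LSK polysomal 1 (adjusted p = 0.0671), LSK total 1 (0.0579), MP polysomal 3 (0.0540), MP total 1 (0.0963) or MP total 2 (0.0508) was left out, and without both MP libraries numbered 1 (0.0580). Me1 lost it without LSK polysomal 1 (adjusted p = 0.0651), LSK total 1 (0.0510), LSK total 2 (0.0713), MP polysomal 1 (0.0509), MP polysomal 2 (0.0619), MP total 1 (0.124) or MP total 2 (0.0823), and without both MP libraries numbered 1 (0.208).

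**Figure D5:**
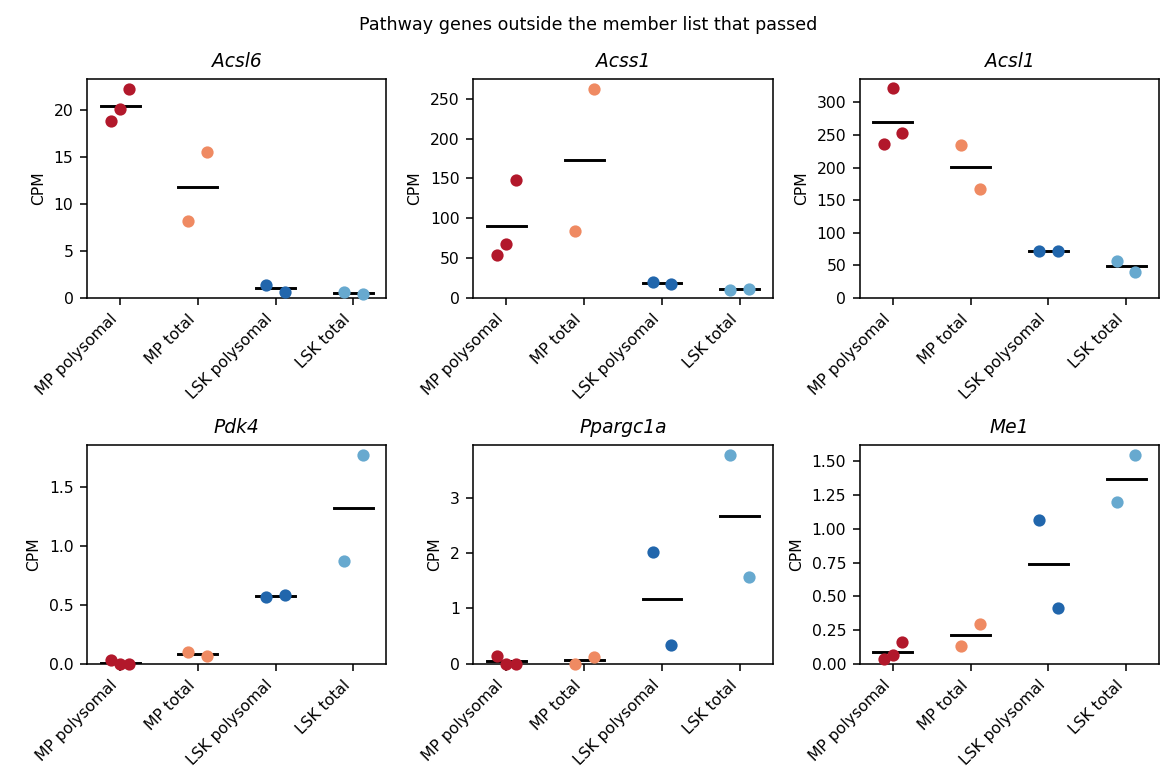
CPM (vertical axes, each from 0 on its own scale) of the 6 other pathway genes that passed in the mean population comparison, in the 4 groups of libraries. Points are libraries and black lines group means. Acsl6, Acss1 and Acsl1 are higher in all 5 MP libraries, and Pdk4, Ppargc1a and Me1, all under 4 CPM, are higher in all 4 LSK libraries.

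In polysomal over total RNA 0 of the 71 other genes passed by the quasi-likelihood test of edgeR or by DESeq2, with 11 at an unadjusted p under 0.05, against 14.9% of all genes. Aco1, the cytosolic aconitase that also binds RNA as an iron regulatory protein, had 175, 212 and 186 CPM in MP polysomal RNA and 116 and 94.6 CPM in MP total RNA, against 169.5 and 174 CPM in LSK polysomal RNA and 86.0 and 24.6 CPM in LSK total RNA, a change of 1.25 (SE 0.41, adjusted p = 0.194). All polysomal libraries lay above all total libraries for Aco1. The 10 other cycle, isocitrate and malic enzyme genes had 9 positive fraction changes (median 0.50), and the 10 tested genes of propionate, ketone and acetate entry had 8 (median 0.64). Of the 8 tested regulators of mitochondrial and fatty acid oxidation genes, 2 had a positive fraction change (median −0.32).

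Promoter windows from the RefSeq tables, 250 bases before to 50 after each start, were found for 35 of the 37 members and searched on both strands for 4 short motifs. The NRF1 motif, GCGCATGC, was found at 5 members (14.3%), Ogdh, Glud1, Acadm, Etfa and Etfdh. It was found at 6 of 53 matched other pathway genes (11.3%) and at 3.05% of all 27025 genes of the table, expressed or not. At Ogdh only some of its several windows held it. The ETS motif, CCGGAAGT, was found at Dlst, Cpt2 and Slc25a20 (8.57%), against 1.89% of the other pathway genes and 4.31% of all genes. The YY1 motif, AAGATGGCG, was found at Idh3g alone (2.86%), against 3.77% and 1.64%. The ERR motif, TCAAGGTCA, was found at 0 members and 0.466% of all genes, and among 53 matched other pathway genes at Acsl6 and Sdhd. These are matches of letters and say nothing of binding. The 5 members with an NRF1 match had MP over LSK changes between -0.48 for Acadm and 0.77 for Etfa.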

How the data were processed

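Counts per gene symbol were deposited by the authors as whole numbers for all 9 libraries, and every column was matched to a sample by name. Reads were processed with bcl2fastq, STAR, featureCounts and DESeq2 on mm10 or GRCm38, per the submitters' processing notes. For the counting, the annotation and the strand are not stated in the labels, so counts of overlapping genes and of processed copies may be shared or divided. The authors also deposited a normalized table on a log2 scale, whose method is not given in the sources used here, and it was used only as an alternative.

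Low-count genes were dropped by filterByExpr (minimum count 10, minimum total 15). edgeR 4.0.16 in R 4.3.3 fitted a quasi-likelihood model with 1 mean per group, and no replicate block, to all 9 libraries with TMM scaling (5 residual and 4.58 prior degrees of freedom). It gave 7 two-sided comparisons, adjusted by Benjamini-Hochberg over the 16426 genes at a threshold of 0.05. Alternatives used DESeq2 1.42.0, limma 3.58.1, other scalings, no filter, a replicate block and left-out libraries. The scripts were tested on simulated data, where recovery was required only for large changes at a spread well below that of these libraries. That check says nothing of how often changes of the members' size would be found. The median biological coefficient of variation was 0.56 over all genes and 0.45 over the members, so spread between libraries and not depth set the precision. Pooled ratios at low counts carry exact intervals at 95% that cover counting error only. Positions are GRCm38 in GENCODE M21, and promoter sequences are from RefSeq (GRCm38.p6), with none shown for chromosome 18. Ratios of paired members were tested where both had at least 10 counts in every library, which left out Me3 to Me2.

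The members and gene lists were chosen with earlier results of these data known. Values in every library are given for members that passed, for the 3 members of each role with the smallest p in the mean population and mean fraction comparisons, for members of ratios and for untested members. Other members are given by range, and other pathway genes where they passed or had the 2 smallest p-values. A gene that this rule names is not reported here.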

Additional observations from a re-analysis of the deposited data

Results flagged for a closer look

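For 3 members and 4 other pathway genes, 1 comparison went opposite ways in the 2 settings it was made in. The libraries did not overlap in either. How many of all genes show such opposite orders was not counted, so these counts are not set against a share. In each of the single comparisons, 15% to 28.5% of all genes lay apart without overlap in a given direction. In Idh3g, Acadvl and Etfb the MP libraries lay below the LSK libraries in polysomal RNA and above them in total RNA. The changes were −0.61 and 0.31 for Idh3g, −0.65 and 1.04 for Acadvl, and −0.47 and 0.80 for Etfb. The difference between the fractions was −0.92 (SE 0.59) for Idh3g, −1.69 (SE 0.86) for Acadvl and −1.27 (SE 0.65) for Etfb. In Acsl4, a long-chain acyl-CoA synthetase, and Gabpa, a subunit of an ETS-family regulator, the order was the reverse, with MP above LSK in polysomal RNA (1.17 and 1.23) and below it in total RNA (−1.16 and −0.46), a difference of 2.34 (SE 1.01) for Acsl4 and 1.69 (SE 0.85) for Gabpa. In Fabp5, a fatty acid binding protein, and Mcee, an enzyme of propionate breakdown, polysomal libraries lay below total ones in MP cells (−0.36 and −0.47) and above them in LSK cells (0.24 and 0.20). Their difference was −0.60 (SE 0.70) for Fabp5 and −0.66 (SE 0.69) for Mcee. None of these 7 differences passed edgeR's quasi-likelihood test of the interaction (adjusted p = 0.877 to 0.898). These orders are in TMM scaling. With library totals alone as scaling, MP and LSK libraries overlapped in total RNA for Idh3g and Acadvl. So did the polysomal and total libraries of LSK cells for Fabp5 and Mcee. Groups of 2 and 3 libraries give such an order easily, and each gene has 1 estimate from the same 9 libraries. Part of the exons of Acadvl and Etfb overlap other genes.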

How the results depend on the processing

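No member passed in the total RNA, polysomal RNA, LSK fraction, MP fraction or interaction comparison under any alternative run. In the mean population comparison DESeq2 called 3 members, and the fits with no filter on low counts and with library number as a replicate block called 1 each (Me2). Leaving out single libraries gave 0 to 2, beside 652 to 1480 of all genes. In the mean fraction comparison DESeq2 called 1 (Hadha). With library totals as scaling the member median was 0.21 in total RNA, 0.083 in the mean population comparison, 0.28 for LSK fractions, 0.17 in the mean fraction comparison and −0.27 for the interaction. Without both LSK libraries numbered 2 it was 0.37 in total RNA, 0.28 for LSK fractions and −0.037 for the interaction, and −0.34 for the interaction without both MP libraries numbered 1. The replicate block gave a mean population median of 0.47. With library totals as scaling 23 of 36 members were positive in total RNA (all genes 36.6%) and 18 in polysomal RNA (44.2%). Positive members then numbered 23 for LSK fractions (36%), 19 for MP fractions (38.3%) and 13 for the interaction (55%). TMM factors were 1.18 in LSK total 1 and 1.33 in LSK total 2, against 0.881 to 1.05 in the other libraries. Leaving out single libraries gave medians of 0.38 to 0.81 in total RNA, 0.28 to 0.58 in the mean population comparison, 0.51 to 0.91 for LSK fractions, 0.36 to 0.55 in the mean fraction comparison and −0.76 to −0.22 for the interaction. The fraction change of Dld ran from −0.083 to 1.42 with single libraries left out, the lowest without LSK polysomal 1. Differences of log2 ratios changed sign with single libraries left out for Acadl to Acadm (−0.27 to 1.44), Acadvl to Acads (−0.16 to 0.27) and Pdha1 to Pdhb (−0.11 to 0.27). The causes were not tested. As a check of pairing, deviations from the group means correlated at 0.253 to 0.62 in all 6 pairs of libraries numbered 1, at −0.375 to 0.592 in the 6 pairs numbered 2, and at 0.569 to 0.608 between MP polysomal 3 and the libraries numbered 2 of the other groups. In groups of 2 libraries the deviations mirror each other, so pairs numbered 2 among such groups only repeat the values of those numbered 1. The negative pairs numbered 2 all involved MP polysomal 2. The labels do not tie the numbers to a batch or animal, so the main model has no block. Some marker sums also followed the number within a population. Maturing neutrophil markers were highest in MP polysomal 1 and MP total 1 (17754 and 14294 CPM). B cell markers were highest in LSK polysomal 2 and LSK total 2 (3368 and 4795 CPM). Whether such libraries share a lysate was not tested. If a number marks a shared preparation, the main model ignores it, and the errors of changes averaged over both fractions are too small.

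Over all genes, the count that passed was 179 in total RNA (0 to 1471 over the alternatives), 551 in polysomal RNA (0 to 1624) and 1657 in the mean population comparison (384 to 2706). In the mean fraction comparison it was 0 by edgeR, 765 by DESeq2, 843 with no filter and 462 by limma on the authors' normalized table. Of the other pathway genes, DESeq2 called 7, 8 and 12 in the same 3 population comparisons, against 2, 2 and 6 by edgeR. DESeq2's own counts over all genes in these 3 are not given here, so its calls are not set against a share. Depth was alike in all libraries.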
